A study of Mus musculus with 2 samples.

Results

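S100 proteins are small calcium-binding proteins, and several of them act outside the cell as danger signals once they are released. S100A8 and S100A9 pair to form calprotectin, a major cytosolic protein of neutrophils that binds zinc and manganese and signals through TLR4 and through RAGE, the receptor for advanced glycation end products. HMGB1 is a chromatin protein that also becomes a RAGE ligand after release, and RAGE has been studied in diabetic tissue because sugar-modified proteins bind it too. The 9 genes described here are S100a8, S100a9, S100a4, S100a6, S100a10, S100a11, S100a13, Hmgb1 and Ager, which encodes RAGE, chosen by symbol out of 32285 genes in the feature table. Each symbol matched 1 row.

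The data came from 2 single-cell libraries of mouse gingiva made with the Chromium 3' v3 chemistry, each pooled from 4 mice and with no replicate. One library was from diabetic mice, in which streptozotocin had been used to induce type I diabetes, and the other from normoglycemic mice. The labels give 1 protocol text for both, so what the normoglycemic mice were injected with, if anything, and the ages are not given in the sources used here. Both groups were CD11CCre-/-;FoxoLL mice on a mixed C57B6 - FVB background. They carried loxP sites around exon 2 of Foxo1 but no Cre, and the submitters state that their Foxo1 protein is normal. In both groups inflammation was induced with bacteria for 2 weeks and was followed by 2 weeks of waiting. Live CD45+ cells negative for CD31 and Ter-119 were sorted, with an enrichment of CD11c+ cells to 20%, so the shares of cell classes also carry the sort. Because each condition is 1 pooled library, no difference has a replicate check: no test and no p-value is given, and every interval covers counting error only.

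After filtering, 10260 diabetic cells and 10948 normoglycemic cells were kept, with median depths of 4631.5 and 5302.5 UMIs. Each cell was placed in a class by marker genes that include no S100 gene, which assigned 82.29% of diabetic and 79.52% of normoglycemic cells. Of 47 further markers outside the gate, 45 were over 2-fold higher in their own class than in the other classes. The sort selected CD45+ cells, yet the diabetic library also held 239 fibroblasts, 233 mural or muscle cells, 103 keratinocytes and 53 Schwann cells, against 18, 4, 7 and 5 in the normoglycemic library. The libraries shared 32 cell barcodes. Ratios are given for 7 classes, those in which both libraries held 100 or more cells: neutrophils (4789 diabetic and 4602 normoglycemic cells), monocytes (797 and 880), macrophages (1174 and 1306), type 1 conventional dendritic cells or cDC1 (204 and 188), type 2 or cDC2 (139 and 302), T cells (413 and 899) and B cells (145 and 282). The neutrophils of the libraries lay largely in different expression clusters: cluster 5 held 1578 diabetic and 11 normoglycemic gated neutrophils, and cluster 20 held 113 diabetic and 1357 normoglycemic ones.

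All of the S100 members lie on chromosome 3 (coordinates from RefSeq, build GRCm38.p6). S100a8 (chr3:90669071-90670034, plus strand) and S100a9 (chr3:90692630-90695721, minus strand) are close neighbours, as are S100a4 (chr3:90603770-90606045) and S100a6 (chr3:90612894-90614414), while S100a13 lies at chr3:90514233-90524581. S100a11 (chr3:93520496-93526288) and S100a10 (chr3:93555117-93564645) lie further along the chromosome. Hmgb1 is at chr5:149046702-149053057 and Ager at chr17:34597460-34600937. RefSeq promoter entries of build GRCm38.p6 matched 8 of the 9 genes. The 80 bases before the annotated start are shown for 4 of them: the S100a8 and S100a9 pair, both highest in neutrophils, S100a4, which was low in neutrophils, and S100a11, which was higher in diabetic neutrophils. Capitals mark TATAAA and GGGCGG on the gene's strand.
S100a8, chr3:90668991-90669070, plus strand: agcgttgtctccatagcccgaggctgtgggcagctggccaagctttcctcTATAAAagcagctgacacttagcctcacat
S100a9, chr3:90695722-90695801, minus strand: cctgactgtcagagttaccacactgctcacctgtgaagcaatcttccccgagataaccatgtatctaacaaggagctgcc
S100a4, chr3:90603690-90603769, plus strand: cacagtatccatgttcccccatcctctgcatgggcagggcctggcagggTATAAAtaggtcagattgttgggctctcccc
S100a11, chr3:93520416-93520495, plus strand: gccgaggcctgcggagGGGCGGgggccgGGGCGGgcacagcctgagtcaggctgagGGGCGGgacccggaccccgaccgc
TATAAA began 30 bases before the start of S100a8 and 31 bases before that of S100a4. These letters occur, on either strand, in the 250 bases before the start in 13% of 27025 genes with an entry, and in the last 80 bases on the gene's strand in 3.68%. S100a9 and S100a11 had no TATAAA in their 250 bases. S100a11 had 3 copies of GGGCGG, the core of a GC box, the nearest 24 bases before the start. S100a9 had 1 copy, 223 bases before its start. GGGCGG stood on either strand in 32.9% of the windows. Of the other motifs searched on both strands, TTGCNNAA (present in 9.55% of windows) matched once in S100a9, and TGANTCA (6.87%) matched 2 times in S100a11. A match describes the letters of the window only.

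Neutrophils held by far the highest levels of S100a8 and S100a9. Levels are UMIs of a gene per 1000000 UMIs, summed over the cells of a class (CPM). S100a8 stood at 60313 CPM in diabetic neutrophils and 59072 CPM in normoglycemic neutrophils, a ratio of 1.02 (95% counting interval 1.02 to 1.02). S100a9 stood at 92428 CPM in diabetic neutrophils and 83491 CPM in normoglycemic neutrophils, a ratio of 1.11 (1.10 to 1.11). Neither passed the 1.5-fold used here to call a difference, which also asks for 10 CPM in either library. The median neutrophil carried 175 S100a8 UMIs in the diabetic and 228 in the normoglycemic library, where median depths were 3483 and 4170.5 UMIs per cell. Calprotectin transcripts per UMI were thus within 1.5-fold of each other in the neutrophils of both libraries.

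Other members differed more in neutrophils. S100a11, whose protein binds annexin A1, stood at 4361 CPM in diabetic and 2577 CPM in normoglycemic neutrophils, a ratio of 1.69 (1.67 to 1.71). S100a13, which takes part in the release of FGF1, had 744 UMIs in diabetic and 581 UMIs in normoglycemic neutrophils, at a CPM ratio of 1.58 (1.41 to 1.76). Hmgb1 had 126 CPM in diabetic and 81.5 CPM in normoglycemic neutrophils, a ratio of 1.55 (1.45 to 1.64). These were 3 of the 8 members that passed 10 CPM, and none was lower. Over the 4124 genes tested in neutrophils, 19.2% were at least 1.5-fold higher and 12.3% at least 1.5-fold lower. The members' median log2 ratio was 0.45, against 0.17 for all genes tested. Scaling by TMM, which aligns the bulk of genes between libraries, lowers every neutrophil log2 ratio by 0.24. All 3 then fell under 1.5-fold, to 1.43 for S100a11, 1.33 for S100a13 and 1.31 for Hmgb1, and the share of higher genes among all genes called dropped to 27.0%, against 60.9% without it.

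S100a8 and S100a11 varied more between neutrophil clusters than between the libraries within a cluster. Within the 7 clusters with at least 50 gated neutrophils in each library, S100a11 ranged from 1837 to 6015 CPM in diabetic cells and from 1588 to 5714 CPM in normoglycemic cells. Its ratio within a cluster was 0.97 to 1.30, below the 1.69 of the whole class in each of the 7. S100a8 was lower in diabetic cells within each of the same clusters, with ratios of 0.81 to 0.93, although the whole class gave 1.02. S100a9 ran from 0.84 to 1.09 within clusters. S100a13 ran from 0.73 to 1.78, past 1.5-fold in 1 of the 7, and Hmgb1 from 0.64 to 1.42, past it in 0 of the 7. With classes from clusters the Hmgb1 call in neutrophils was lost. Cluster 1, with 610 diabetic and 74 normoglycemic cells, had the highest S100a8 of the 7 in both libraries, at 99826 and 117613 CPM. The lowest stood in cluster 11, with 146 diabetic and 1089 normoglycemic cells, at 34833 and 39228 CPM. The 7 leave out cluster 5, which held 1578 diabetic and 11 normoglycemic cells and stood at 4266 CPM of S100a11 in the diabetic library. The clusters were built from the same cells, without the S100 genes among the variable genes. The 7 therefore describe only part of how the class sum is made up.

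**Figure D1:**
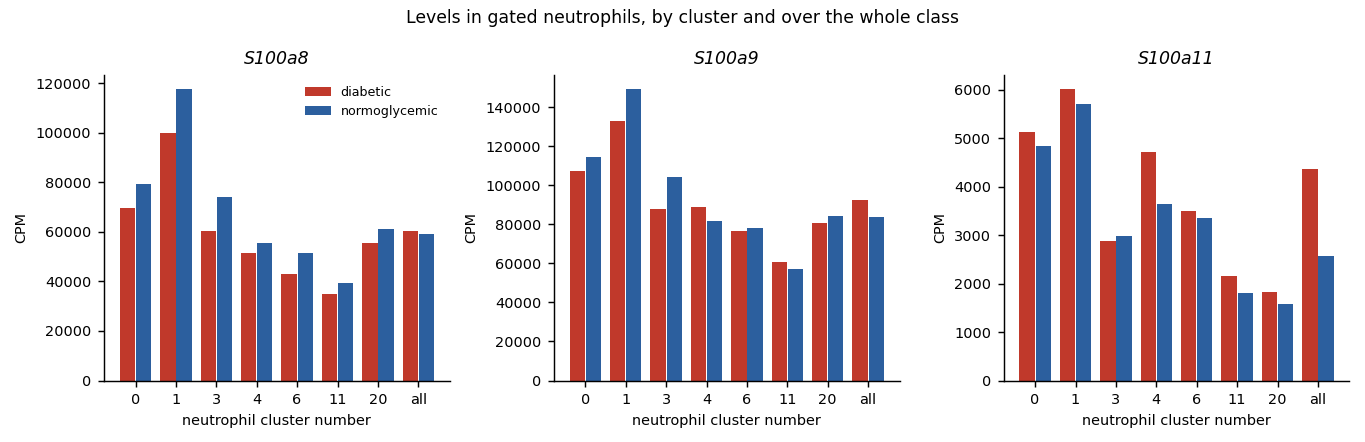
Bars give S100a8, S100a9 and S100a11 levels (y axis, CPM) in gated neutrophils of the diabetic (red) and normoglycemic (blue) library, for the 7 clusters with at least 50 such cells in each library and for the whole class. S100a11 differed little within these clusters (ratios 0.97 to 1.30), whereas the whole class stood at 4361 CPM in diabetic and 2577 CPM in normoglycemic cells. Cluster 5, with 1578 diabetic and 11 normoglycemic cells, is not drawn but is part of the whole class.

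Subsets of neutrophils chosen by other genes added detail. Granule-high neutrophils, with at least 3 of Ltf, Camp, Ngp, Lcn2, Mmp8 and Cd177, numbered 323 diabetic and 196 normoglycemic cells. Their S100a8 level was 95371 CPM in the diabetic and 81024 CPM in the normoglycemic library, a ratio of 1.18 (1.17 to 1.19). In the same subset S100a11 reached 5368 CPM in diabetic and 2628 CPM in normoglycemic cells, a ratio of 2.04 (1.97 to 2.12). This was the widest S100a11 ratio of the subsets. It was 1.69 (1.67 to 1.71) in chemokine-high cells, chosen by genes such as Ccl3 and Cxcl2, and 1.34 (1.27 to 1.42) in interferon-high cells. Neutrophils in no subset, 577 diabetic and 193 normoglycemic cells, gave 1.04 (0.997 to 1.08). Interferon-high neutrophils, of which there were 171 diabetic and 101 normoglycemic cells, had 43280 and 54957 CPM of S100a8, a ratio of 0.79 (0.78 to 0.80). Interferon-high cells were thus the lowest of the neutrophil subsets for S100a8 in both libraries, and granule-high cells the highest. S100a4 in interferon-high cells stood at 613 CPM in the diabetic and 192 CPM in the normoglycemic library, a ratio of 3.20 (2.65 to 3.88). Most S100a4 UMIs of gated neutrophils lay in few cells, described next. Those cells stood at 1329 CPM in the diabetic and 1588 CPM in the normoglycemic library. How many of them were interferon-high was not counted, so the ratio may not describe interferon-high neutrophils.

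S100a4 and S100a10 counts assigned to neutrophils came mostly from few cells. S100a4 encodes a binder of non-muscle myosin and S100a10 the partner of annexin A2. In the class sum S100a4 stood at 172 CPM in diabetic and 117 CPM in normoglycemic neutrophils, a ratio of 1.48 (1.40 to 1.56). However, 152 diabetic and 92 normoglycemic gated neutrophils lay in clusters where neither library had 50 such cells, and these held 66.0% and 75.7% of the class's S100a4 UMIs. For S100a10 the same cells held 69.2% of UMIs in the diabetic and 73.7% in the normoglycemic library, but for S100a11 only 4.82% and 4.73%. For S100a13 they held 29.6% and 31.3%, and for Hmgb1 25.7% and 19.7%. Within the 7 clusters S100a4 ranged from 33.4 to 80.4 CPM in diabetic and from 10.4 to 39.7 CPM in normoglycemic cells, with ratios of 1.30 to 4.56 that passed 1.5-fold in 6 of the 7. The 4.56 was that of cluster 1 (interval 1.74 to 17.0), where 74 normoglycemic cells stood at 10.4 CPM. Cluster 11, counted among the 6, had a ratio of 1.59 (0.98 to 2.46). The share of all genes past 1.5-fold within clusters was not counted. The class ratio moved with the setting, from 0.40 in cells called female to 2.24 with classes from clusters. What those few cells are was not tested.

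Outside neutrophils, S100a8 and S100a9 were at least 1.5-fold lower in the diabetic library in all 6 classes compared. S100a8 stood at 914 CPM in diabetic and 1805 CPM in normoglycemic monocytes, a ratio of 0.51 (0.49 to 0.52). Macrophages had 384 CPM in the diabetic and 1088 CPM in the normoglycemic library, a ratio of 0.35 (0.34 to 0.36). In T cells the levels were 459 and 1637 CPM, a ratio of 0.28 (0.26 to 0.30), and in B cells 148 and 1779 CPM, a ratio of 0.083 (0.070 to 0.099). S100a9 gave ratios from 0.13 in B cells to 0.42 in macrophages. The shares of all genes at least 1.5-fold lower were 7.99% in monocytes, 4.17% in macrophages, 6.26% in cDC1, 9.03% in cDC2, 11% in T cells and 32.3% in B cells. With classes from clusters the calls were lost in monocytes, at 0.68 for S100a8 and 0.72 for S100a9, and in cDC2, at 0.89 for S100a8 and 0.93 for S100a9. In monocytes the S100a8 call was also lost without the 10% of cells with the most UMIs, at 0.78. B cells and T cells are not known as sources of either gene, and in the class sums the difference was widest in B cells. It was smaller in the 103 diabetic and 207 normoglycemic B cells with none of the 8 neutrophil gate markers. There S100a8 stood at 117 CPM in the diabetic and 238 CPM in the normoglycemic library, a ratio of 0.49. Those 207 cells held 254 of the 2973 S100a8 UMIs of normoglycemic B cells.

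**Figure D2:**
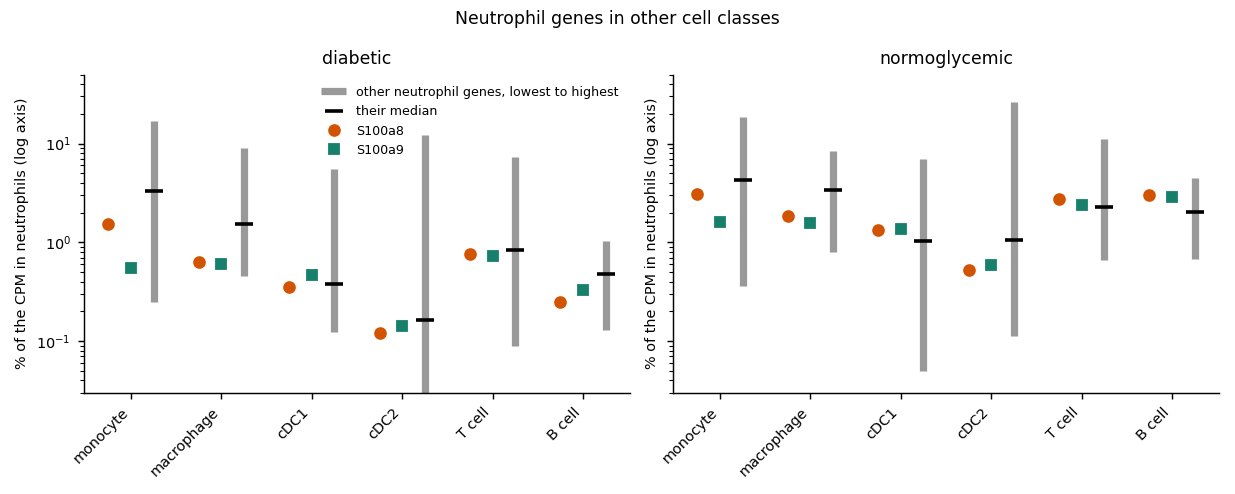
Points give the S100a8 (circles) and S100a9 (squares) level of each class as a percent of the neutrophil level in the same library (log axis), diabetic on the left and normoglycemic on the right; grey bars run from the lowest to the highest of the other neutrophil genes with at least 50 CPM in the neutrophils of both libraries, and black dashes mark their median. The bar that reaches the bottom edge includes a gene at 0; in B cells all marks lie lower in the diabetic panel (S100a8 at 0.246%, against 3.01%).

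As a percent of the neutrophil level, most other neutrophil genes were lower in the diabetic library too. In B cells S100a8 stood at 0.246% of the neutrophil level in the diabetic library and 3.01% in the normoglycemic library, and S100a9 at 0.330% and 2.90%. The neutrophil markers used in the gate or the check with at least 50 CPM in the neutrophils of both libraries, 10 in number, had medians of 0.473% in diabetic and 2.02% in normoglycemic B cells. T cells gave S100a8 at 0.761% and 2.77%, beside medians of 0.831% and 2.25% for those markers. These percents divide by the neutrophil level of the same library. That level was higher in diabetic neutrophils for several markers, such as Retnlg (5586 and 1062 CPM) and G0s2 (11715 and 5135 CPM), which alone lowers their diabetic percent. In T cells and in B cells each of the 10 stood at a lower percent in the diabetic library. Among them was the granulocyte colony-stimulating factor receptor gene Csf3r, at 0.176% in diabetic and 2.60% in normoglycemic T cells. Its neutrophil level was 720 CPM in the diabetic and 747 CPM in the normoglycemic library. The number lower was 8 of 10 in monocytes and cDC1 and 9 of 10 in macrophages and cDC2. Mmp9, which encodes a gelatinase, went the other way in monocytes, cDC1 and macrophages, in the last at 9.08% in diabetic and 5.50% in normoglycemic cells, as did Retnlg in monocytes and cDC1. S100a8 UMIs outside neutrophils also sat in few cells: the tenth of normoglycemic B cells with the most S100a8 held 91.4% of that class's S100a8 UMIs, against 51.0% in diabetic B cells. The part of free RNA, of neutrophils joined to other cells and of expression in these levels was not tested.

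Shares of monocytes with an S100a8 or S100a9 UMI were near those of B cells, except for S100a8 in the diabetic library. After thinning every cell to 1000 UMIs, 26.0% of diabetic and 28.3% of normoglycemic monocytes kept an S100a8 UMI, beside 10.3% (95% Clopper-Pearson interval 5.91% to 16.5%) of diabetic and 26.0% (21.0% to 31.5%) of normoglycemic B cells. Thinning left out 5 diabetic and 4 normoglycemic monocytes and 0 and 1 B cells. Before thinning the shares were 75.2% and 84.5% in monocytes and 48.3% and 68.8% in B cells, at median depths of 10654 and 11245.5 UMIs in monocytes and 4338 and 4647 UMIs in B cells. In the normoglycemic library the monocyte share thus lay within the interval of the B cell share, while the diabetic monocyte share lay above the interval of diabetic B cells. Shares with an S100a9 UMI were not separated by their intervals, at 22.0% in diabetic and 29.9% in normoglycemic monocytes, beside 24.1% (17.4% to 31.9%) and 30.2% (24.9% to 36.0%) in B cells.

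The balance of S100a8 to S100a9 set monocytes apart in both libraries. Neutrophils had 0.653 S100a8 UMIs per S100a9 UMI in the diabetic and 0.708 in the normoglycemic library. Monocytes had 1.79 (1.72 to 1.85) in the diabetic and 1.34 (1.31 to 1.37) in the normoglycemic library, while macrophages, cDC1, cDC2, T cells and B cells lay between 0.486 and 0.826. Some of these also differed from neutrophils beyond counting error, such as diabetic B cells at 0.486 (0.395 to 0.596) and normoglycemic macrophages at 0.826 (0.810 to 0.843). In monocytes with none of the 8 neutrophil gate markers, the ratio was 2.39 (2.14 to 2.67) in 242 diabetic cells and 3.19 (2.91 to 3.50) in 190 normoglycemic cells. Of the 1892 S100a8 UMIs in those 190 cells, 1196 lay in 1 cell, which the counting interval does not cover. In monocytes with 1 of these markers it was 3.62 (3.30 to 3.97) in 296 diabetic and 3.05 (2.87 to 3.24) in 319 normoglycemic cells, and with 2 or more 1.38 (1.32 to 1.44) and 1.03 (1.01 to 1.06). In B cells with none of these markers it was 0.632 (0.464 to 0.856) in the diabetic and 0.825 (0.696 to 0.977) in the normoglycemic library.

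**Figure D3:**
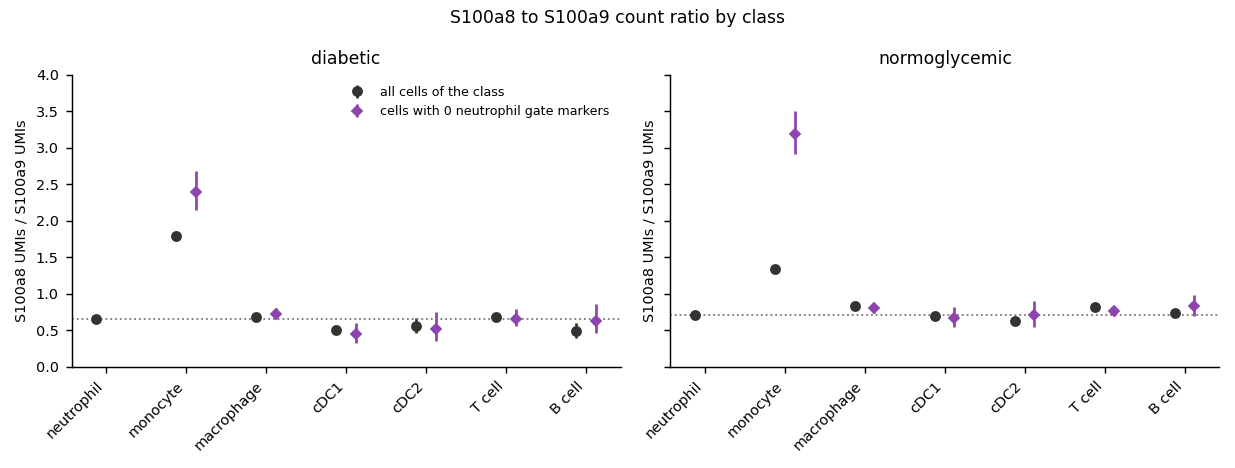
Points give S100a8 UMIs per S100a9 UMI by class with 95% counting intervals, diabetic on the left and normoglycemic on the right, for all cells of a class (circles) and for cells with 0 neutrophil gate markers (diamonds); the dotted line is the neutrophil value. Monocytes alone lie above 1 among the classes drawn, with cells without markers at 2.39 in the diabetic and 3.19 in the normoglycemic library. In the latter, 1 cell held 1196 of the 1892 S100a8 UMIs of monocytes without markers.

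Few monocytes without markers held most of their S100a8 UMIs. The limit of 10 S100a8 UMIs used here was chosen after the values were seen. Among monocytes without neutrophil markers, 13 of 242 diabetic cells (5.37%, Clopper-Pearson 2.89% to 9.01%) and 10 of 190 normoglycemic cells (5.26%, 2.55% to 9.47%) held at least 10 S100a8 UMIs. Those 13 diabetic cells had 773 S100a8 and 58 S100a9 UMIs, which was 70.4% of the S100a8 UMIs of all 242. The 10 normoglycemic cells had 1531 S100a8 and 121 S100a9 UMIs, which was 80.9%, and 1 of them alone held 1196 S100a8 UMIs. The remaining monocytes without markers had 0.810 S100a8 UMIs per S100a9 UMI in the diabetic and 0.765 in the normoglycemic library. Choosing cells by S100a8 raises their S100a8 to S100a9 ratio, and lowers that of the rest, by construction. Only 2 diabetic and 1 normoglycemic monocyte without markers held at least 10 S100a9 UMIs. In B cells without markers no cell reached 10 S100a8 UMIs, of 103 diabetic cells (which allows a share of up to 2.91%) and of 207 normoglycemic cells (up to 1.45%).

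Among monocytes without neutrophil markers, S100a8 stood at 502 CPM in the diabetic and 1077 CPM in the normoglycemic library. Leaving out the 1 cell with the most S100a8 from each gave 409 and 400 CPM. The lower S100a8 of diabetic monocytes without markers therefore rested on 1 normoglycemic cell. Restricted to cells without markers in this way, 8 of the 12 values of S100a8 and S100a9 outside neutrophils were still at least 1.5-fold lower, or 7 with that cell left out. Both values of macrophages were not, at ratios of 0.71 and 0.78. Nor was S100a9 in cDC1, at 121 CPM in diabetic and 170 CPM in normoglycemic cells, or in cDC2, at 129 and 171 CPM. The share of all genes lower in cells without markers was not counted. Keratinocytes, which make calprotectin in inflamed epithelium, could be read in the diabetic library only. Their 103 cells had 266 CPM of S100a8 and 194 CPM of S100a9, with 1.37 (1.22 to 1.54) S100a8 UMIs per S100a9 UMI. Their S100a8 share after thinning, 17.3% (10.4% to 26.3%), stood beside 10.3% (5.91% to 16.5%) in diabetic B cells, and these intervals overlapped.

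**Figure D4:**
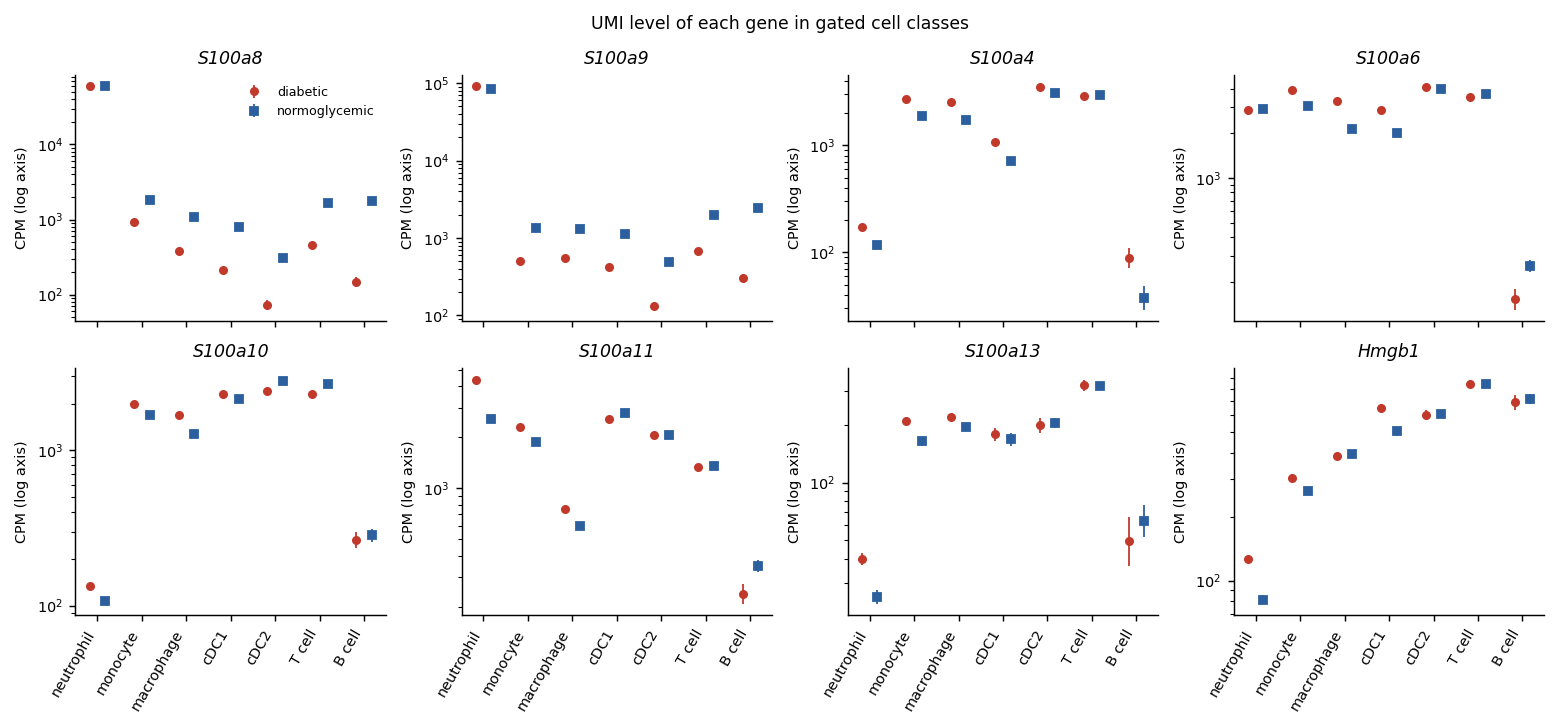
Levels (y axis, CPM, log axis) of the 8 members that reached 10 CPM, in the 7 compared classes, diabetic (red circles) left of normoglycemic (blue squares); bars are exact 95% Poisson intervals, often smaller than the symbol. S100a8 and S100a9 peak in neutrophils, where S100a4, S100a10, S100a13 and Hmgb1 are low.

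The remaining S100 genes had a broad myeloid, lymphoid and stromal pattern. S100a4 was highest in cDC2 among diabetic classes of at least 50 cells, at 3516 CPM, ahead of T cells (2871 CPM), monocytes (2727 CPM) and macrophages (2556 CPM). In the normoglycemic library mature dendritic cells led with 3757 CPM, ahead of cDC2 with 3058 CPM, type 2 innate lymphoid cells (ILC2) and T cells, and the intervals of cDC2, ILC2 and T cells overlapped from one to the next. B cells were the lowest normoglycemic class, at 37.7 CPM, and diabetic B cells, at 89.1 CPM, were not separated by their interval from keratinocytes, at 75.4 CPM. S100a6, or calcyclin, was highest in diabetic fibroblasts, mural or muscle cells and keratinocytes, at 7104, 6206 and 4899 CPM, which were too few to compare in the normoglycemic library. Its lowest class was B cells in both libraries.

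S100a10, S100a11 and S100a13 each ordered the classes differently. S100a10 was lowest in neutrophils in both libraries, at 134 CPM in diabetic and 107 CPM in normoglycemic cells. Diabetic cDC2, T cells and cDC1 led for it, at 2424, 2309 and 2291 CPM, and their intervals overlapped from one to the next. In the normoglycemic library ILC2 led, at 3920 CPM over 64 cells, a class with only 20 diabetic cells. S100a11 was highest in neutrophils in the diabetic library, ahead of cDC1 with 2561 CPM, whereas in the normoglycemic library cDC1 led with 2786 CPM and neutrophils came next. B cells had its lowest level in both, at 237 CPM in diabetic and 346 CPM in normoglycemic cells. S100a13 was led by fibroblasts in the diabetic library, at 425 CPM, and stood in T cells at 321 CPM in the diabetic and 319 CPM in the normoglycemic library. In macrophages S100a10 had a ratio of 1.32 (1.29 to 1.34), the highest of the ratios of these 3 genes outside neutrophils.

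In macrophages S100a4 and S100a6 stood higher in diabetic cells. S100a6 had 3277 CPM in diabetic and 2131 CPM in normoglycemic macrophages, a ratio of 1.54 (1.52 to 1.56). S100a4 had 2556 CPM in diabetic and 1707 CPM in normoglycemic macrophages, a ratio just under 1.5 (interval 1.47 to 1.52) and so not called. Of all genes tested in macrophages, 2.45% were at least 1.5-fold higher. The cells with at least 3 of the resident macrophage genes Lyve1, Folr2, Cd163, Timd4, Cbr2 and F13a1, which were 463 diabetic and 543 normoglycemic cells, had the widest ratios of these genes among the 4 macrophage subsets read by gene lists. S100a6 stood there at 3694 CPM in the diabetic and 1996 CPM in the normoglycemic library, a ratio of 1.85 (1.81 to 1.89), and S100a4 at 2877 and 1606 CPM, a ratio of 1.79 (1.75 to 1.84). Class II-high macrophages, the narrowest of the 4, had a ratio of 1.42 (1.40 to 1.45) for S100a6. A cell could be in several subsets. Macrophages called male by their Y-linked genes gave 1.67 for S100a6 and those called female 1.43.

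S100a4 was near the limit in monocytes and cDC1 as well. It had 2727 CPM in diabetic and 1875 CPM in normoglycemic monocytes, a ratio of 1.45 (1.43 to 1.48), and in cDC1 it had 1072 and 710 CPM, a ratio of 1.51 (1.44 to 1.59). It was the only member called higher in cDC1, where 6.14% of all genes were, and it fell under the limit in 6 of the alternatives, to 1.07 with classes from clusters. No member was at least 1.5-fold higher in monocytes, cDC2 or T cells, where 6.8%, 7.23% and 4.21% of all genes were. The ratios of S100a4, S100a6, S100a10, S100a11, S100a13 and Hmgb1 lay between 0.86 and 1.15 in cDC2 and between 0.87 and 1.01 in T cells. Both classes thus held these genes near parity.

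B cells gave the least certain values. S100a4 stood at 89.1 CPM in diabetic and 37.7 CPM in normoglycemic B cells from 86 and 63 UMIs, a ratio of 2.36 (1.69 to 3.33), and in the same cells S100a6 stood at 153 and 256 CPM, a ratio of 0.60 (0.49 to 0.72). In B cells 7.09% of all genes were called higher and 32.3% lower, with a median log2 ratio of -0.31. TMM scaling raises each B cell log2 ratio by 0.28, at which S100a6 no longer passed, at 0.73. The S100a4 ratio turned to 0.62 when the gate needed a lead of only 1 marker, and to 0.93 with classes from clusters. Plasma cell genes (Ighg2b, Mzb1 and Jchain) were among the 10 genes that led this class.

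**Figure D5:**
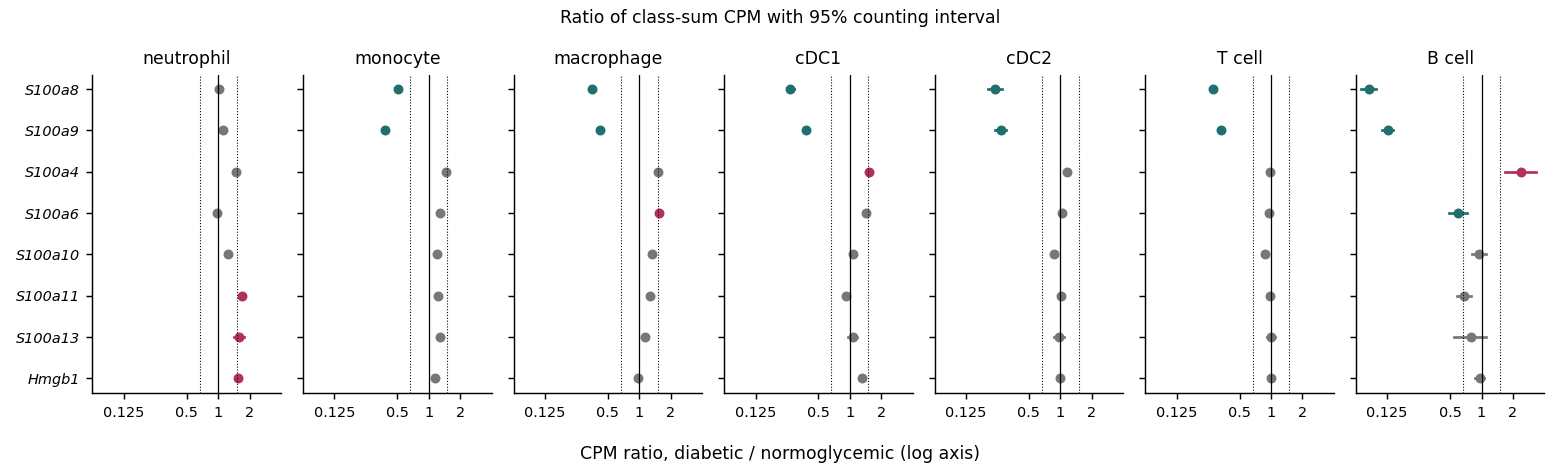
Ratios of diabetic over normoglycemic CPM (x axis, log scale) of the 8 members in each of the 7 classes, with 95% counting intervals; the solid line is 1, the dotted lines are 1.5-fold, and colour marks values past them. Of 56 values 6 lie to the right and 13 to the left, and 12 of the 13 are S100a8 and S100a9 outside neutrophils.

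Hmgb1 had a pattern of its own across classes. Its level was lowest in neutrophils in both libraries and high in T cells, at 845 CPM in diabetic and 837 CPM in normoglycemic cells, a ratio of 1.01 (0.96 to 1.06). Diabetic Schwann cells had 1134 CPM, the highest value among diabetic classes of at least 50 cells, and normoglycemic Schwann cells were too few. Only neutrophils had a ratio past 1.5-fold, with 1.30 (1.22 to 1.38) in cDC1 as the next. Over 20 points, each a class of 1 library with at least 50 cells, the genes whose log2(CPM + 1) followed Hmgb1 most closely were Cbx3 (Pearson r = 0.98), which encodes a heterochromatin protein, and Nolc1 (0.98). S100a8 was followed most closely by S100a9 (0.98) and by Hdc (0.95), the histidine decarboxylase gene, which was among the neutrophil gate markers. S100a4 was closest to Lgals1 (0.92), the galectin-1 gene, and S100a11 to Actg1 (0.84). Points of 1 library share its free RNA and depth, so these values describe and do not test.

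Ager, the receptor gene, was nearly absent. It had 16 UMIs in 4789 diabetic neutrophils and 14 in 4602 normoglycemic neutrophils, or 0.860 and 0.611 CPM. Monocytes had 9 UMIs in the diabetic and 4 in the normoglycemic library. Diabetic B cells had 0 UMIs, which allows up to 3.11 CPM, and diabetic fibroblasts 0 UMIs, which allows up to 0.821 CPM. Ager reached 10 CPM in none of the 7 classes, so it is not counted above and no difference was detectable at this depth. RAGE is best known from lung epithelium, a tissue not sampled here.

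Receptors and partners of these proteins were read from a list of 34 genes. In neutrophils 25 passed 10 CPM, of which 5 were at least 1.5-fold higher and 3 lower, with a median log2 ratio of 0.13. These are 20% and 12% of the 25, close to the 19.2% and 12.3% of all neutrophil genes. All 3 lower genes were listed as receptors. Tlr2, a receptor for bacterial lipoproteins, stood at 338 CPM in diabetic and 585 CPM in normoglycemic neutrophils. Olr1, the receptor for oxidised low-density lipoprotein, had 127 and 234 CPM, and Lgals3 (galectin-3, which binds glycated proteins) 333 and 604 CPM. Msr1, also listed as a receptor, was higher, at 17.2 CPM in diabetic and 9.96 CPM in normoglycemic neutrophils. Among the partners, Anxa1, the annexin bound by S100A11, stood at 608 CPM in diabetic and 374 CPM in normoglycemic neutrophils, a ratio of 1.63 (1.58 to 1.67). Myh9, the myosin bound by S100A4, had a ratio of 1.54 (1.48 to 1.60). With TMM scaling 0 of the 25 were higher and 6 lower, while of all neutrophil genes 7.35% were then higher and 19.9% lower.

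In macrophages 33 of the 34 passed, with 2 higher and 0 lower (2.45% and 4.17% of all genes), and both higher genes were listed as receptors. Lgals3 had 2090 CPM in diabetic and 1299 CPM in normoglycemic macrophages, a ratio of 1.61 (1.58 to 1.64), opposite in direction to neutrophils. Msr1, the class A scavenger receptor, had 255 CPM in diabetic and 158 CPM in normoglycemic macrophages, a ratio of 1.61 (1.53 to 1.70). Monocytes had 1 higher gene of 33, Olr1 with a ratio of 1.72, and 3 lower ones (6.8% and 7.99% of all genes), of which Tlr2 had 379 CPM in diabetic and 615 CPM in normoglycemic cells. The adaptor genes Myd88 (ratio 0.58) and Traf6 (0.57) were the other lower genes there. In cDC1 2 of 29 were higher and 2 lower (6.14% and 6.26% of all genes), and in cDC2 0 of 28 were higher and 2 lower (7.23% and 9.03%). T cells had 2 of 29 higher and 7 lower (4.21% and 11% of all genes), and with TMM scaling 2 and 5 (5.49% and 8.63%). B cells had 2 of 29 higher and 16 lower (7.09% and 32.3% of all genes), and with TMM scaling 4 and 6 (13.1% and 17.6%).

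Of 10 other S100 genes in the feature table, 4 reached 50 CPM in a class. S100b, the classic glial S100 gene, reached 324 CPM in diabetic Schwann cells. S100a14 reached 418 CPM in diabetic keratinocytes, and S100a16 had 281 CPM in diabetic keratinocytes, 182 CPM in diabetic Schwann cells and 178 CPM in diabetic fibroblasts. S100a1 stood at 124 CPM in diabetic and 113 CPM in normoglycemic macrophages, and at 252 CPM in diabetic Schwann cells. The keratinocyte, fibroblast and Schwann cell values have no normoglycemic value beside them, since that library held too few such cells.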

How the data were processed

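Per the labels, the libraries were made with the Chromium 3' v3 kit from 1 pool of 4 mice per group. The authors deposited unnormalized counts of UMIs. Per the file headers these came from Cell Ranger 4.0.0; the submitters' processing notes name version 6.0.2 and the build mm10. The annotation is not given in the sources used here. The matrices held 10496 diabetic barcodes with 78220582 UMIs and 11280 normoglycemic barcodes with 89339733 UMIs. The lowest barcode had 500 UMIs, so filtering preceded deposit. The 4 antibody features were kept apart.

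Cells with at least 500 UMIs, 200 genes and at most 15% mitochondrial UMIs were kept, which removed 236 diabetic and 332 normoglycemic barcodes. A cell joined 1 of 17 classes with at least 3 of its 8 markers detected and 2 more than for any other class. Doublets were not called. The gate asks for a lead of 2 markers, so cells with some markers of other classes could pass. Among gated monocytes, 259 of 797 diabetic and 371 of 880 normoglycemic cells had 2 or more neutrophil markers. Among gated T cells these were 22 of 413 and 80 of 899. Of the kept cells 1817 diabetic and 2242 normoglycemic ones joined none. Clusters (scanpy 1.11.5, Leiden) were an alternative. UMIs were summed per class and scaled to CPM. Ratios carry exact conditional binomial, levels exact Poisson and shares exact Clopper-Pearson 95% intervals, which treat UMIs as independent. A count of 0 allows up to 3 counts. A fold of 1.5 with 10 CPM in either library was the call. Levels were given for classes of at least 50 cells in a library. All 9 members were reported in every class compared; other S100 genes were named at 50 CPM, and listed pathway genes where they passed the fold. Poisson counts were simulated for the macrophage comparison (7283 genes, 200 of them changed 3-fold). The intervals held the true ratio for 95.3% of genes, and 100% of the changes were recovered. These counts were drawn independently, as the interval assumes, and 3-fold lies well past the call. They check the calculation and not the coverage in these data, where UMIs of some genes sat in few cells. edgeR 4.0.16 gave TMM factors, under R 4.3.3 and Python 3.11.15. Members, lists and thresholds were chosen with earlier results of these data known.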

Additional observations from a re-analysis of the deposited data

Results flagged for a closer look

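S100a6 went opposite ways in macrophages and B cells: the log2 ratio of macrophages minus that of B cells was 1.36, with macrophages at least 1.5-fold higher and B cells at least 1.5-fold lower in the diabetic library. With 1 library per group this difference was not tested.

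S100a4 in neutrophils was higher in diabetic cells called male (ratio 1.69) and lower in those called female (ratio 0.40), a log2 difference of 2.09, male minus female. Cells were called by Xist and Y-linked UMIs, and the female calls were 217 diabetic and 46 normoglycemic neutrophils, against 1820 and 2452 male calls. S100a8 in monocytes was lower in diabetic cells called male (ratio 0.47) and higher in those called female (ratio 5.01), a log2 difference of -3.41, male minus female, over 204 diabetic and 51 normoglycemic female calls. Neither difference was tested, and the number of mice of each sex in the pools is not given in the sources used here.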

How the results depend on the processing

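Members were recomputed under 20 alternatives, of which leaving out the 32 shared barcodes was chosen after the data were seen. The 6 higher and 13 lower values became 2 higher and 12 lower with TMM scaling, and median-of-ratios scaling kept 3 of the 6. Cells called female gave 3 higher values, of which 1 was among the 6. Of S100a8 and S100a9 outside neutrophils, 12 of 12 were lower, against 8 with classes from clusters and 7 in cells called female. Subtracting the B cell level left 2 such values and subtracting the T cell level 2, in each case those of the subtracted class itself, and S100a8 in monocytes was the only other value above 0 in both libraries. Its log2 ratio turned to 4.86 and 1.44 by these subtractions and to 2.32 in cells called female, where S100a9 in monocytes was 0.074, S100a13 in neutrophils -0.21 and Hmgb1 in neutrophils -0.49. S100a4 in B cells turned to -0.69 with a lead of 1 marker and -0.10 with classes from clusters. The cause was not tested. No other called direction turned. No paired analysis was possible because each group is 1 pooled library. Ratios of few UMIs (B cells, Ager) and of cells called female are limited by depth and cell number.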
